A study of Mus musculus with 12 samples.

Results

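The Hox cluster genes are 39 protein-coding genes of the mouse genome whose symbols are Hoxa, Hoxb, Hoxc or Hoxd followed by a number, out of 21887 protein-coding RefSeq genes on the chromosomes used. They were chosen by symbol, without any measured value. They lie in 4 clusters of the mm10 (GRCm38.p6) genome. The Hoxa cluster is 11 genes on the minus strand of chromosome 6 (52155367 to 52260880, 106 kb) and the Hoxb cluster 10 genes on the plus strand of chromosome 11 (96194316 to 96368254, 174 kb). The Hoxc cluster is 9 genes on the plus strand of chromosome 15 (102921131 to 103036856, 116 kb) and the Hoxd cluster 9 genes on the plus strand of chromosome 2 (74668225 to 74765142, 96.9 kb). Peaks were read over each cluster and over 50 kb on each side.

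The cells were EpCAM-selected lung epithelial cells from pooled wild-type C57Bl6 fetuses at E17.5, shortly before birth, and no library came from a mutant or a treated animal. CUT&RUN, in which a nuclease tethered to an antibody releases the DNA around its target, was run with 100000 cells per reaction. Peak lists of 9 of the 12 samples were analysed: 3 of H3K4me3, 3 of NKX2-1, 2 of PRDM16 (replicate 1 with a rabbit antibody, replicate 2 with a sheep antibody) and 1 of PRDM3. The 3 IgG samples were not analysed here. The lists held between 14646 and 19117 H3K4me3 peaks and between 52283 and 111489 factor peaks. Fold enrichment, the height of a peak relative to its background, is a value that the authors' caller assigned to each peak. Read depth is unknown from these files. Whether the replicates came from separate pools of fetuses is not stated, so p-values measure only the spread between these libraries.

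Hox genes encode homeodomain transcription factors that set position along the body axis. Within a cluster, low-numbered genes sit at the 3′ end and act toward the head, high-numbered genes sit at the 5′ end and act toward the tail, and genes with the same number in different clusters (a paralogue group) descend from 1 ancestor. In the lung, Hoxa5 and other genes of the 3′ side are best known from the mesenchyme, and loss of Hoxa5 disturbs airway and alveolar development. H3K4me3 marks the starts of active and poised genes. NKX2-1 is the homeodomain factor that defines the lung epithelial lineage, and PRDM3, the product of Mecom, and PRDM16 are zinc finger proteins of the PR domain family.

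The promoters of 4 Hox genes show the range of sequence on which the peaks below fall. Hoxa5, Hoxb4 and Hoxd1 carried H3K4me3 in replicate 1, whereas Hoxa9 carried none in any library and had PRDM16 in both libraries. Each line gives the 250 bases before the start on the gene's strand, 5′ to 3′, with every CG dinucleotide in capitals. Sequences are from RefSeq, build GRCm38.p6, and these 4 were chosen after their values were seen.
Hoxa5, chr6:52204588-52204837, minus strand: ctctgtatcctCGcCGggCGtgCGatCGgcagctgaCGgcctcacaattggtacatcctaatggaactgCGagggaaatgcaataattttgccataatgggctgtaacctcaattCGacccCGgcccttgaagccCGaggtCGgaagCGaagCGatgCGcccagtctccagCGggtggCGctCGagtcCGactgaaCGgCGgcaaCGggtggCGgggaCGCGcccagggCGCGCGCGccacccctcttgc
Hoxb4, chr11:96318017-96318266, plus strand: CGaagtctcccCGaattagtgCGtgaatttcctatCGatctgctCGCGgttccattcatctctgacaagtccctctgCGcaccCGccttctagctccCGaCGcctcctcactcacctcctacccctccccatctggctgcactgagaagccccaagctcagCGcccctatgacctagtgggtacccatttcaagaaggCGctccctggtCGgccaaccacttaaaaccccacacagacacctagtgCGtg
Hoxd1, chr2:74762730-74762979, plus strand: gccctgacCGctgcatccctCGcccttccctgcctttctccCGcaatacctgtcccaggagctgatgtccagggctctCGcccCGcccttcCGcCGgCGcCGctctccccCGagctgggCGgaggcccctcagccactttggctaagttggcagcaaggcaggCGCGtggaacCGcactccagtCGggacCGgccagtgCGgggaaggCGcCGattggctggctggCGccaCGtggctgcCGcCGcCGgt
Hoxa9, chr6:52227371-52227620, minus strand: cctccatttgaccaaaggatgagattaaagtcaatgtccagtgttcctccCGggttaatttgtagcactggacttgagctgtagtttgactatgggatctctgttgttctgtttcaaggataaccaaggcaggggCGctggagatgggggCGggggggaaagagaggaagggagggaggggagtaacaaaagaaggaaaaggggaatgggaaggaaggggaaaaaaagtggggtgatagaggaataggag
The Hoxa5 stretch holds 28 CG, with an observed-to-expected CG ratio of 1.11. Hoxd1 holds 24 (0.759), Hoxb4 14 (0.760) and Hoxa9 3 (0.266), so the unmarked Hoxa9 is the stretch with the fewest of these 4. Over promoters of 250 bases before to 50 bases after the start, the median CG ratio was 0.626 in 24 promoters of 22 Hox genes, against 0.567 in 21263 promoters of all protein-coding genes. The 6 Hox promoters with H3K4me3 in replicate 1 had a median of 0.625 and the 18 without had 0.675. The CG ratio thus did not separate marked from unmarked Hox promoters. The letters CACTTG, a core bound by NKX2-1, were found on either strand in 1 of the 24 Hox promoters (4.17%, Hoxd12), against 13.1% of all promoters. The letters AGATAA, a core linked to PRDM3, were found in 0 of 24, against 9.65% of all promoters. These matches describe letters in a window and say nothing of binding.

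The clusters also hold microRNA genes, which are known to repress Hox mRNAs. Mature sequences of the 5p arms, with the seed (bases 2 to 8) in capitals, are shown for the families whose seed is shared between clusters. The sequence of miR-615, in Hoxc, shares its seed with no other of these 5p arms and is not printed.
mmu-miR-10a-5p, Hoxb cluster: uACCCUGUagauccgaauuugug
mmu-miR-10b-5p, Hoxd cluster: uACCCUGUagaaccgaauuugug
mmu-miR-196b-5p, Hoxa cluster: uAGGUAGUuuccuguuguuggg
mmu-miR-196a-5p, Hoxb and Hoxc clusters: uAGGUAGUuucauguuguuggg
They are shown because members of a seed family sit in clusters that differed in their peaks, as given with the values of each microRNA gene further on.

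H3K4me3 was sparse on Hox genes and sat on the 3′ side of the Hoxa and Hoxb clusters. A gene was counted when a peak overlapped the 1 kb on each side of its start in at least 2 of 3 libraries. By this rule 3 of 39 Hox genes carried H3K4me3, among them Hoxa4 and Hoxb2, while 58.2% of 17492 protein-coding genes with a listed start did. Of the 22 Hox genes whose start is listed, 0 did. For the other Hox genes the outer 5′ end on the strand of the cluster stood for the start. Hoxa4 (NCBI Gene 15401) had fold enrichments of 8.57 in replicate 1, 6.69 in replicate 2 and no peak in replicate 3. Hoxb2 (NCBI Gene 103889), a factor of hindbrain patterning, had 9.33, 12.8 and no peak within 1 kb, although a replicate 3 peak with a fold of 6.18 lay 1031 bases from its start. No Hox gene had an H3K4me3 peak at its start in replicate 3.

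The libraries differed widely in how many Hox genes they marked. Replicate 1 marked 12 of 39 (background 60.6%), replicate 2 marked 3 (58.3%) and replicate 3 marked 0 (57%). The 12 genes of replicate 1 included Hoxa2 to Hoxa5, Hoxb2, Hoxb3, Hoxb4, Hoxb5, Hoxb7, Hoxd1 and Hoxd8. All 12 belong to paralogue groups 1 to 8, which hold 23 Hox genes, and 0 of the 16 genes of groups 9 to 13 were marked in any library. Fold enrichment at the 12 starts had a median of 7.14 and was lowest at Hoxd8, with 5.21. The replicate 1 peaks in the clusters had a median percentile of 17.8 in their own list, and those of replicates 2 and 3 had 15.5 and 4.88. Hox peaks thus lay in the lower part of each H3K4me3 list.

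The neighbours of Hoxa4 and Hoxb2 carried H3K4me3 in replicate 1 only or in no library. Hoxa5 (NCBI Gene 15402), next to Hoxa4, had a fold of 6.61 in H3K4me3 replicate 1 with no peak in replicates 2 and 3. It also had 5.12 in NKX2-1 replicate 1 and 3.79 in PRDM3, and no peak in the other 4 factor libraries. Hoxb3 had 7.14 in H3K4me3 replicate 1 and no peak in any of the 6 factor libraries. Hoxb1, on the other side of Hoxb2 and the last gene of its cluster, had no H3K4me3 peak at all. Its factor values were 2.98 in NKX2-1 replicate 1, 2.58 and 5.45 in the PRDM16 libraries and 2.99 in PRDM3.

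In replicate 1 the mark formed a long run of separate peaks in 2 clusters. On Hoxa, 20 peaks spanned 54.8 kb, covered 31.8% of that span and reached folds of 4.12 to 12.9. The starts of Hoxa2 to Hoxa6 lay within the run, although Hoxa6 had no peak within 1 kb of its own. It ended at the listed Hoxa3 start between Hoxa6 and Hoxa7, leaving 47.6 kb up to the end of Hoxa13 without a peak. The highest peak of the run (12.9, 52176826 to 52178157) lay inside Hoxa3, over the long noncoding RNA 5730596B20Rik and 11995 bases from the nearest Hox start, that of Hoxa2. On Hoxb, 21 peaks spanned 70.1 kb (96284404 to 96354461) from Hoxb7 to beyond Hoxb2, covered 16.8% of the span and had folds of 5.0 to 9.33. Hoxd had single peaks at Hoxd8 (5.21) and Hoxd1 (6.30). Hoxc had no H3K4me3 peak in any library, flanks included.

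Few of these positions recurred between libraries. The only bases of the 4 clusters under a peak in all 3 H3K4me3 libraries were 256 inside Hoxb2 (96352663 to 96352918), with folds of 6.47, 12.8 and 6.18. Stretches of Hoxa shared by replicates 1 and 2 lay inside Hoxa3 at 52175588 (8.81 and 7.30) and just outside the Hoxa4 start (8.57 and 6.69). A further position recurred between Hoxb13 and Hoxb9, at the long noncoding RNA Gm53, with folds of 4.75, 10.1 and 6.18. No base there was under a peak in all 3 libraries.

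**Figure D1:**
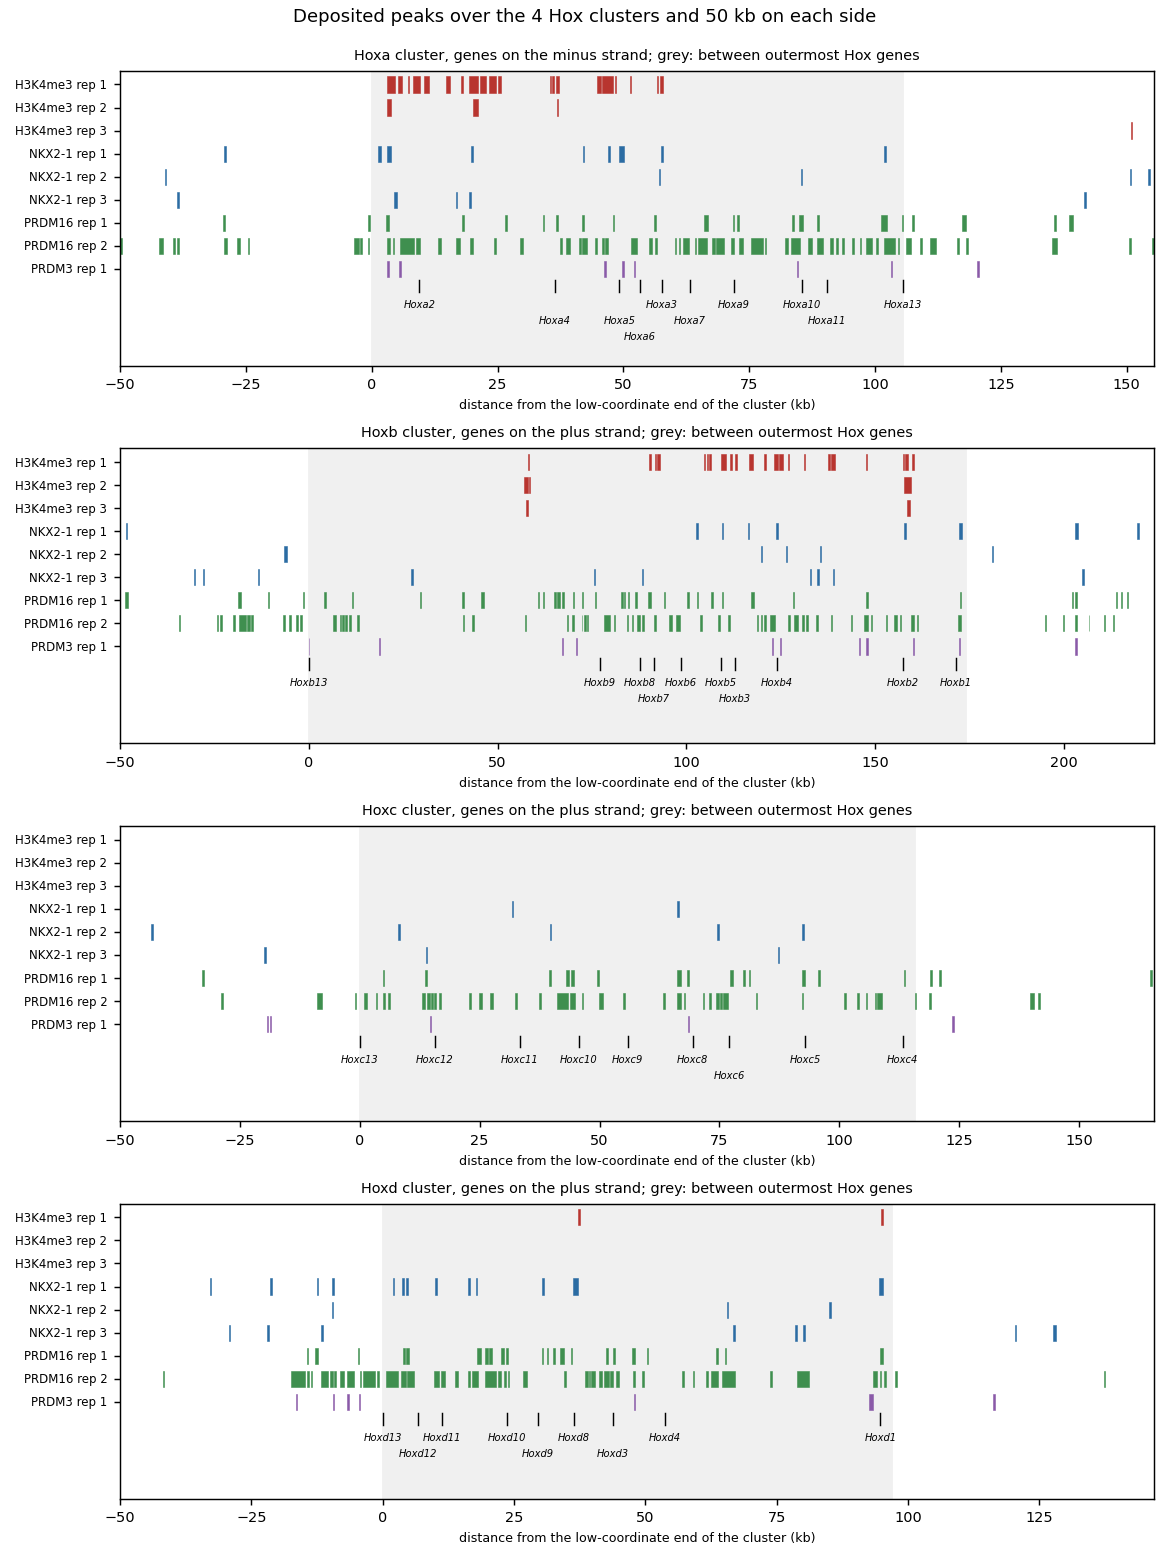
Each panel is a Hox cluster with 50 kb on each side. The x axis is distance in kb from the low-coordinate end, each row is a library, each block is a deposited peak drawn to scale, and labelled ticks mark the outermost start used for a Hox gene. H3K4me3 replicate 1 runs over 54.8 kb of Hoxa and 70.1 kb of Hoxb, Hoxc has no H3K4me3 peak, and the PRDM16 rows hold peaks in all 4 clusters, denser in the sheep row (replicate 2).

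The defining markers of the sorted cells were checked by the same rule. All 11 epithelial markers carried H3K4me3, with folds of 6.93 to 26.3 in replicate 1, 18.8 to 70.5 in replicate 2 and 11.1 to 64.6 in replicate 3. Of 10 mesenchyme markers, 6 had a peak in replicate 1, 3 in replicate 2 and 2 in replicate 3, so this list ordered the libraries as the Hox genes did. The background shares of protein-coding genes given above fell in the same order, and so did the numbers of peaks in the H3K4me3 lists. The order is therefore not particular to mesenchyme markers. Foxf1 (15.6, 10.5 and 11.5) and Col1a2 (8.23, 7.30 and 11.0) were marked in all 3 libraries, and Col1a1 (6.31 and 6.01) in replicates 1 and 2. Col3a1 (4.69), Twist2 (7.55) and Tcf21 (4.17) were marked in replicate 1 only, and Tbx4, Tbx5, Pdgfra and Pdgfrb in none. Of 6 endothelial markers 3, 1 and 1 were marked in the 3 libraries, and of 6 blood markers 2, 2 and 1. Mesothelium markers gave 1 of 3 in each library. Fewer cells of a type and less mark per cell cannot be told apart in such bulk samples, and the part of these other cells in the Hox mark was not tested. The deposited peak names carry a letter C in H3K4me3 replicate 1, NKX2-1 replicate 1 and all PRDM libraries, and a letter H in the other 4 libraries. The labels do not say what it stands for, and its part in the difference between replicates was not tested.

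NKX2-1 was rare at Hox starts. By the rule of at least 2 of 3 libraries it was present at 2 of 39 Hox genes, among them Hoxa3, against 49.4% of protein-coding genes. Hoxa3, whose listed start lies between Hoxa6 and Hoxa7, had folds of 3.39 in replicate 1, 2.19 in replicate 2 and no peak in replicate 3. The −log10 q that the authors' caller gave its peaks was 1.52 and 0.0601. Singly, replicate 1 had a peak at 10 Hox starts (background 58.4%), replicate 2 at 3 (40.9%) and replicate 3 at 2 (47.5%). The highest NKX2-1 value at a Hox start was 5.12 at Hoxa5 in replicate 1. No stretch of at least 20 bases between the outermost Hox genes of a cluster lay under peaks of 2 NKX2-1 libraries. The only shared stretch in the windows was 263 bases inside Evx2, the homeobox gene next to Hoxd13 (chromosome 2, 74658540 to 74658802), with folds of 3.34 and 2.44 in replicates 1 and 2.

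PRDM16 was the factor found most often at Hox starts. Both libraries had a peak at 13 of 39 genes, against 52.1% of protein-coding genes. Replicate 1 alone had 19 (background 62.0%) and replicate 2 alone had 28, the only library in which the Hox share of 71.8% stood above its background of 56.2%. The 13 genes were spread over the clusters: Hoxa9, Hoxa10 and Hoxa13, Hoxb1, Hoxb5, Hoxb7 and Hoxb8, Hoxc5, Hoxc6 and Hoxc10, and Hoxd1, Hoxd3 and Hoxd10. Paralogue group 10, whose genes pattern the lumbar axis and limb, was the only group in which all its genes (3 of 3) were on this list. Of the genes with PRDM16 in both libraries, none carried H3K4me3 by the rule of at least 2 libraries. Only 3 of 39 Hox genes met that H3K4me3 rule, so little overlap was possible. Of the 12 genes marked in H3K4me3 replicate 1, 3 had PRDM16 in both libraries (Hoxb5, Hoxb7 and Hoxd1), and of the 27 unmarked, 10 did.

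Folds at the starts with PRDM16 in both libraries were modest. Hoxc5 had 8.6 in the rabbit library and 3.77 in the sheep library, and Hoxd1 had 4.16 and 3.89. Hoxa10 had 3.77 and 2.93, Hoxb7 3.50 and 3.04, and Hoxa9 2.80 and 4.67. Hoxc5 was the only one of these 5 whose rabbit value was above 5. Hoxb5 had 2.87 and 4.52, Hoxb8 2.87 and 3.89, Hoxd3 2.87 and 3.89, and Hoxd10 2.87 and 4.20. Hoxb1 had 2.58 and 5.45, Hoxc6 2.69 and 4.67, Hoxc10 2.80 and 3.78, and Hoxa13 2.15 and 4.54. In these last 8 genes the sheep value was the higher of the pair, although folds from different lists are not on a common scale. Most of the rabbit peaks at these starts were of low confidence. Their −log10 q was 0.221 at Hoxa13, 0.774 at Hoxb1 and Hoxc6, and 0.981 at Hoxa9 and Hoxc10. It was 0.996 at Hoxb5, Hoxb8, Hoxd3 and Hoxd10. Higher values were 1.84 at Hoxb7, 2.16 at Hoxa10, 2.77 at Hoxd1 and 10.5 at Hoxc5. The highest PRDM16 fold at any Hox start was 9.33 at Hoxd13, the terminal digit and genital gene, in the sheep library. The rabbit library had no peak there.

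PRDM3, with a single library, was found at 9 of 39 Hox starts against 48.7% of protein-coding genes. They included Hoxc12 (3.89), Hoxa5 (3.79), Hoxa6 (3.58), Hoxa10 (3.27), Hoxb1 (2.99), Hoxc8 (2.68), Hoxb4 (2.62) and Hoxb13 (2.62). Hoxd had none. In each cluster, the gene with the highest mean percentile over the 6 factor libraries (0 where there was no peak) was Hoxa10 (37.1), Hoxb1 (28.5), Hoxc5 (28.9) and Hoxd1 (33.1). Hoxa10 had 3.26 in NKX2-1 replicate 2 besides its PRDM values. Hoxc5 had 2.32 in the same NKX2-1 library, and Hoxd1 had 4.55 in NKX2-1 replicate 1 and 6.30 in H3K4me3 replicate 1. Some factor peak of the 6 libraries lay at 37 of the 39 starts (94.9%), against 71.6% of protein-coding genes, and Hoxb3 and Hoxd4 had none. A peak in any library of PRDM16 was at 34 Hox starts against 66.1% of protein-coding genes. The same for NKX2-1 was 13 against 64.3%, and for H3K4me3 12 against 61.1%. The rule of any library thus put Hox genes above the background for PRDM16 and below it for NKX2-1 and H3K4me3, and 28 of the 34 PRDM16 genes had a sheep peak.

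**Figure D2:**
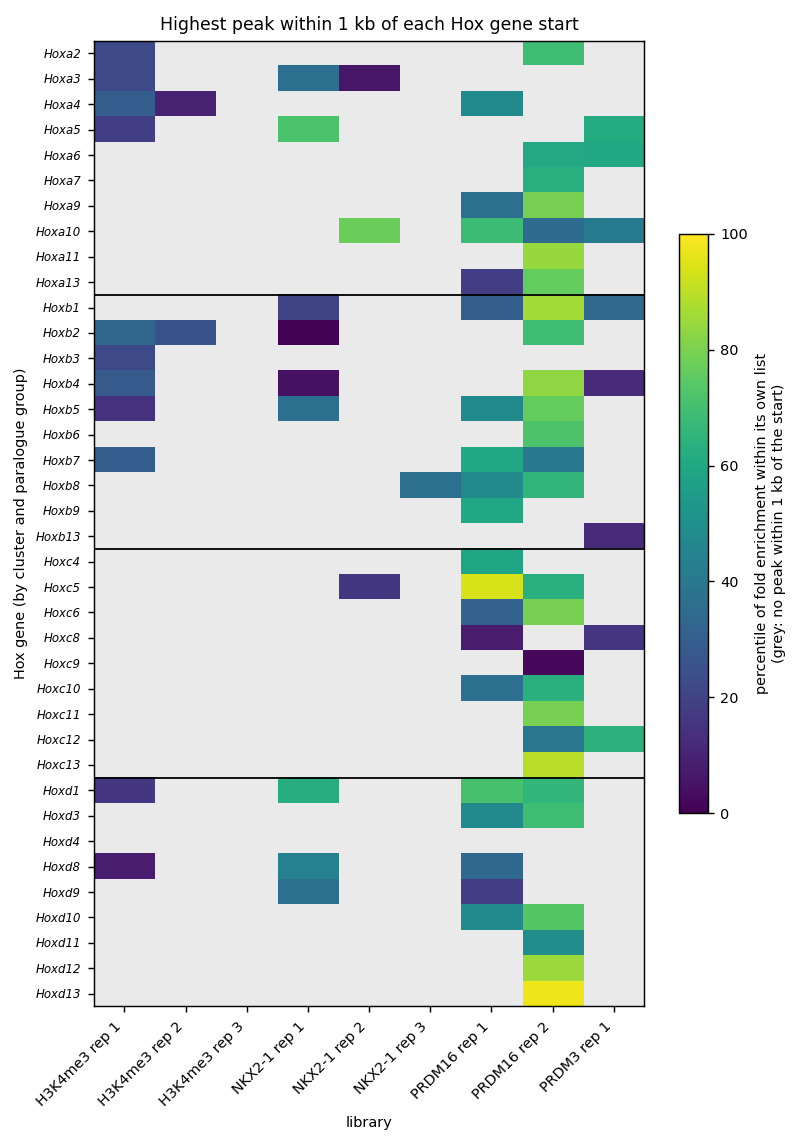
Rows are Hox genes by cluster and paralogue group (1 of the 39 is not drawn), columns are the 9 libraries, and colour is the percentile of fold enrichment of the highest peak within 1 kb of the start, in its own list (grey: no peak). H3K4me3 cells are dark and confined to groups 1 to 8, while the column of PRDM16 replicate 2 holds coloured genes in all 4 clusters, up to a percentile of 97.5 at Hoxd13.

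**Figure D3:**
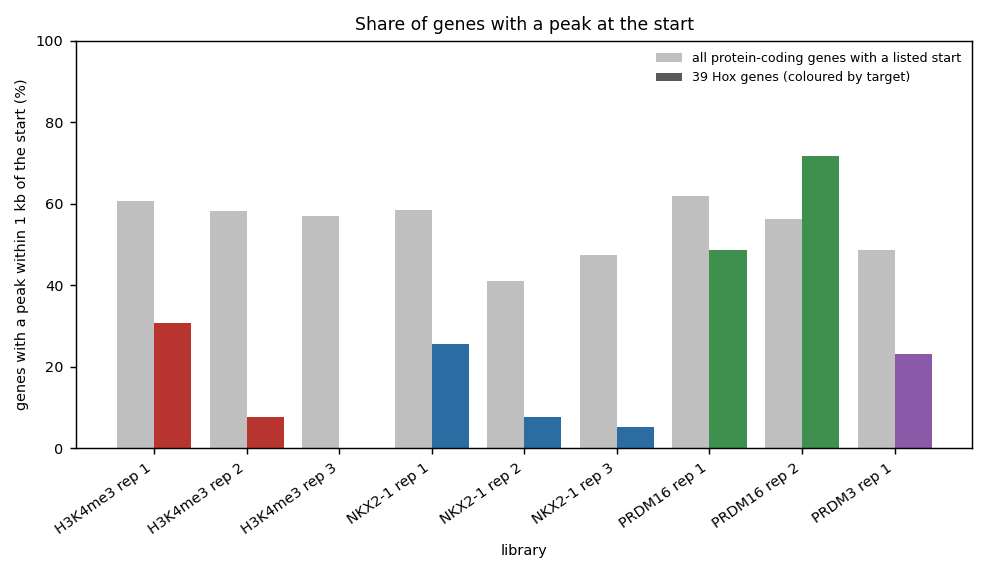
Bars give the percent of genes with a peak within 1 kb of the start in each library, in grey for 17492 protein-coding genes and in colour for the 39 Hox genes. The Hox bar stands above the grey bar in PRDM16 replicate 2 (71.8% against 56.2%) and below it in the other 8 libraries.

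Of the 9120 genes with PRDM16 at the start in both libraries, all but 338 had H3K4me3 there in at least 1 library. Hox genes were therefore also set beside genes that lack the mark, a comparison chosen after values had been seen. Among 6799 protein-coding genes with no H3K4me3 peak at the start in any library, 4.97% had PRDM16 in both libraries, against 10 of 27 such Hox genes (37.0%). The rabbit library alone gave 13.3% against 14 of 27 (51.9%), and the sheep library alone 9.88% against 21 of 27 (77.8%). PRDM3 gave 4.03% against 6 of 27 (22.2%), and NKX2-1 2.24% against 0 of 27. Hox genes of a cluster are neighbours and often share a peak, so no test was made over genes. Other developmental families had shares in the same range. Of 22 genes of the Dlx, Lhx, Irx, Pax and Nkx families with no H3K4me3 peak in any library, 11 had PRDM16 in both libraries (50.0%), 13 in the rabbit library (59.1%) and 16 in the sheep library (72.7%). They include Pax6, Dlx2, Lhx3 and Nkx2-5. PRDM3 was at 3 of the 22 and NKX2-1 at 2. Among genes with a listed start only, PRDM16 was in both libraries at 8 of 17 family genes (47.1%) and at 7 of 16 Hox genes (43.8%). Among the 475 of these genes with a promoter CG ratio of at least 0.6, PRDM16 was present in both libraries at 16.8%, against 5 of 9 Hox genes. The rabbit library gave 32.0% against 5 of 9 and the sheep library 30.9% against 9 of 9. PRDM3 gave 8.42% against 2 of 9, and NKX2-1 6.32% against 0 of 9. These shares rest on low folds, and most of the 10 Hox genes had a rabbit −log10 q of 0.996 or less. With peaks of −log10 q of at least 5 only, 0 Hox genes kept PRDM16 in both libraries or PRDM3.

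Factor peaks anywhere in the clusters were set beside the mark as well. Of 76 PRDM16 peaks in the rabbit library between the outermost Hox genes, 9 touched an H3K4me3 peak of any library (11.8%), against 18.0% of that whole list. Of 155 in the sheep library 19 did (12.3%, against 22.9%). PRDM3 gave 6 of 21 (28.6%, against 31.4%). NKX2-1 gave 10 of 25 in replicate 1 (40.0%, against 35.6%), 1 of 11 in replicate 2 (9.09%, against 18.7%) and 3 of 14 in replicate 3 (21.4%, against 18.0%). Most factor peaks of the Hox clusters lay off the mark, as did most of each whole list, and in Hoxc, which has no H3K4me3 peak, all did.

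Both PRDM16 antibodies shared 33 stretches between the outermost Hox genes, 9 in Hoxa, 6 in Hoxb, 6 in Hoxc and 12 in Hoxd, each at least 20 bases long. The flanks held 8. The sheep library alone covered 20.8% of cluster bases, and no share of overlap over the whole lists is given here. The number of stretches is therefore no measure of agreement between the antibodies. Rabbit folds in the 33 went down to 2.10. The strongest by the rabbit library lay between Hoxa11 and Hoxa13 (52257138 to 52257741), 3139 bases from the Hoxa13 start, with folds of 10.4 in the rabbit and 5.83 in the sheep library. The next lay between Hoxd13 and Hoxd12 (74672863 to 74673220), with 10.0 and 5.38, and just outside Hoxc5 (103013445 to 103013654), with 8.6 and 3.77. NKX2-1 replicate 1 also had a peak at the first 2 of these (3.92 and 4.75), and none carried H3K4me3.

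Over whole clusters, the percent of bases under a peak was highest in the sheep PRDM16 library. The order of the clusters varied between libraries, also between the 2 PRDM16 libraries. H3K4me3 replicate 1 covered 16.5% of Hoxa, 6.88% of Hoxb, 0.626% of Hoxd and 0 of Hoxc. Replicate 2 covered 1.87% of Hoxa and 1.86% of Hoxb, and replicate 3 covered 0.884% of Hoxb. The rabbit PRDM16 library covered 6.88% of Hoxa, 6.51% of Hoxb, 5.67% of Hoxc and 8.45% of Hoxd. The sheep library covered 32.2%, 14.0%, 15.4% and 26.9% in the same order. NKX2-1 replicate 1 covered 3.73%, 1.65%, 0.461% and 4.39%, and replicates 2 and 3 stayed between 0.385% and 1.21% in every cluster. PRDM3 covered 2.15%, 1.82%, 0.517% and 0.937%. Hoxd was thus covered most by the rabbit PRDM16 library and by NKX2-1 replicate 1, while Hoxa led in H3K4me3 replicate 1, the sheep PRDM16 library and PRDM3.

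Sheep PRDM16 coverage of Hoxa and Hoxd was at the extreme of its own list. Of 27214 tiles of 100 kb along the chromosomes, 0 were covered as much as the Hoxa cluster and 1 as much as Hoxd, and that tile itself holds 8 Hoxa genes (28.3%). For Hoxc and Hoxb the numbers were 80 and 117. Another tile, with Hoxd9 to Hoxd13, ranked 6 at 23.2%. In the rabbit library 1492 tiles (5.48%) were covered at least as much as Hoxd, the highest of its clusters, so the 2 antibodies differed in how far Hox stood out. For H3K4me3 replicate 1, 55 tiles (0.202%) were covered at least as much as Hoxa. In replicate 2 that share was 19.4%, and in replicate 3 Hoxa had no peak. The share of Hox peaks with −log10 q of at least 5 was 11 of 76 in the rabbit library (14.5%, against 19489 of 111440 peaks of its list, a higher share) and 6 of 155 in the sheep library (3.87%, against 14.6% of its list).

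Inside Hoxa, the PRDM16 peaks and the H3K4me3 run leaned to opposite sides. Within the 54.8 kb of the replicate 1 run, the sheep library covered 24.2% of bases, and in the other 50.7 kb of the cluster, toward Hoxa13, 41.0%. The rabbit library covered 5.19% and 8.70%. NKX2-1 replicate 1 covered 5.62% inside the run and 1.70% outside, and PRDM3 3.07% and 1.15%, the reverse order. NKX2-1 replicate 3 covered 1.84% and 0, and replicate 2 0.423% and 0.625%. In Hoxb the sheep library did not repeat this, with 19.4% inside the 70.1 kb run and 10.4% in the other 104 kb, while the rabbit library had 5.57% and 7.15%. These splits were chosen after the run was seen and have no test.

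Clusters were compared with their flanks by an exact two-sided sign-flip permutation test over libraries. Factor libraries covered 5.48% of the clusters and 2.30% of the 50 kb flanks on average, a difference of 3.17 ± 4.93 percentage points (SD, n = 6 libraries). It was higher in 5 of 6 libraries, with an exact p of 0.0938 where 0.0312 is the smallest possible. Without the sheep PRDM16 library the difference was 1.28 points (exact permutation p = 0.188). H3K4me3 libraries covered 2.49% of the clusters and 0.0209% of the flanks, a difference of 2.47 ± 3.17 points (SD, n = 3) that was positive in 3 of 3 libraries, with an exact p of 0.25, the smallest that 3 libraries allow. Without H3K4me3 replicate 1 it was 0.655 points. Neither difference passed 0.05.

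None of the 6 pairs of clusters differed in factor coverage beyond the spread between libraries. Here and against the flanks, the factor libraries pool NKX2-1, PRDM16 and PRDM3. Their spread therefore holds differences between targets and antibodies, and no target was tested alone. The widest gaps were Hoxa over Hoxc by 3.83 ± 6.53 points and Hoxa over Hoxb by 3.46 ± 7.29 points (SD, n = 6), each positive in 5 of 6 libraries, with an exact permutation p of 0.0938 and an adjusted p of 0.25 over the 6 pairs. Hoxc minus Hoxd was −3.10 points (exact permutation adjusted p = 0.25). Without the sheep library the first 2 gaps were 1.22 and 0.506 points. Hoxa and Hoxd differed by 0.735 points, and by −0.192 without the sheep library. Among H3K4me3 libraries, Hoxa covered 6.13 ± 9.04 points more than Hoxc (SD, n = 3) and Hoxb covered 3.21 ± 3.22 points more than Hoxc, and every adjusted p was at least 0.75 by the exact permutation test. Hoxa over Hoxb, at 2.92 points, turned to −0.439 without H3K4me3 replicate 1.

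**Figure D4:**
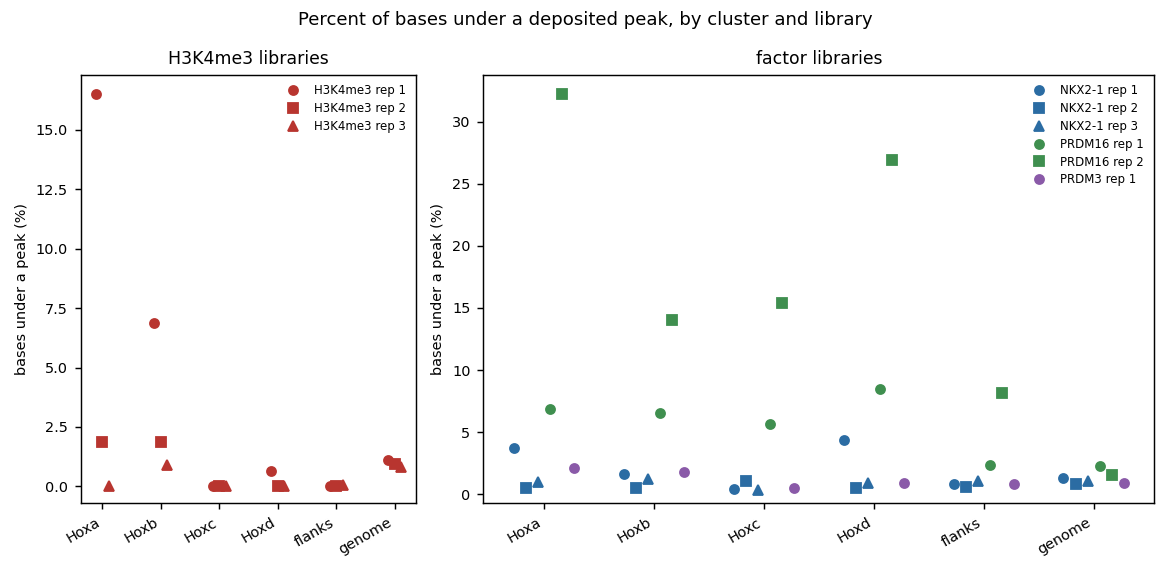
Points give the percent of bases under a deposited peak in each cluster, in the 50 kb flanks and in the genome, for each library (left, H3K4me3; right, factors). The sheep PRDM16 library stands at 32.2% in Hoxa and 26.9% in Hoxd, and H3K4me3 replicate 1 at 16.5% in Hoxa, with Hoxc at 0 in all 3 H3K4me3 libraries.

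Because the lists differ in length, cluster coverage was also taken relative to the coverage of the genome in the same library, as a log2 ratio. H3K4me3 had 2.47, 0.20 and −1.40 in replicates 1 to 3, so the clusters were above the genome in replicate 1 and below it in replicate 3. NKX2-1 had 0.83, −0.28 and −0.22. PRDM16 had 1.57 (rabbit) and 3.72 (sheep), and PRDM3 0.63. NKX2-1 averaged 0.11 and the 3 PRDM libraries 1.97, a difference of −1.86 on the log2 scale whose exact permutation p was 0.20, where 0.10 is the smallest that 3 against 3 allow. NKX2-1 replicate 1, at 0.83, lay above PRDM3, so the groups overlapped. That replicate is the only NKX2-1 library with the letter C that all PRDM libraries carry, and within that letter the NKX2-1 value is a single one. Without the sheep library the difference was −0.99. With only the 14000 strongest peaks of each list, NKX2-1 averaged −2.18 and the PRDM libraries 0.252. That difference was −2.43 (exact permutation p = 0.30). H3K4me3 averaged −0.188 in that setting, against 0.424 with all peaks. The level of the clusters relative to the genome thus depended on the peaks kept. H3K4me3 and NKX2-1 differed by 0.31 (exact permutation p = 0.80), and by −0.71 without H3K4me3 replicate 1. Within letter C the values were 2.47 and 0.83, and within letter H the H3K4me3 values were 0.20 and −1.40 beside NKX2-1 values of −0.28 and −0.22.

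Hoxa5 is the Hox gene best known in lung, and its pattern of peaks at the start was compared with that of every other Hox gene over the 9 libraries. It had H3K4me3 replicate 1, NKX2-1 replicate 1 and PRDM3. No gene had the same pattern in all 9. Hoxb4 came closest, differing in 1 library, the sheep PRDM16 one (5.16). Hoxa3, Hoxb3, Hoxb13 and Hoxd8 differed in 2. Hoxb4 had H3K4me3 at 8.30 in replicate 1, NKX2-1 at 2.53 in replicate 1 and PRDM3 at 2.62, each at a lower factor fold than Hoxa5. Both genes had H3K4me3 in 1 library only.

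Noncoding genes between the outermost Hox genes were read within 1 kb of the listed start, or of either gene end where none is listed. In Hoxa, H3K4me3 was at 7 of 7 that overlap the replicate 1 run and at 0 of the other 5. In Hoxb it was at 3 of 3 in the run and at 1 of the other 6. The run is itself made of H3K4me3 peaks, so these splits were largely fixed by how the sets were drawn. The marked gene outside the Hoxb run, Gm53 between Hoxb13 and Hoxb9, had the mark in all 3 libraries, on the 5′ side. Hoxc had 0 of 6 and Hoxd 2 of 5, and a PRDM16 peak of either library was at 11 of 12, 8 of 9, 4 of 6 and 4 of 5 in Hoxa to Hoxd. No background share for noncoding genes is given here. The genes named next are the microRNAs and 2 long noncoding RNAs. Mir10a, inside Hoxb3 and beside Hoxb4, had 6.78 in H3K4me3 replicate 1, 2.53 in NKX2-1 replicate 1, 5.16 in sheep PRDM16 and 2.41 in PRDM3. Mir10b, which shares its seed and lies inside Hoxd4, had only a sheep PRDM16 peak of 2.34. Mir196b, between Hoxa9 and Hoxa10, had 8.02 in the sheep library, the highest sheep fold of the Hoxa cluster, and no H3K4me3. Of the genes that make miR-196a, Mir196a-1 in Hoxb had PRDM16 folds of 2.15 and 2.37 and PRDM3 at 3.39, and Mir196a-2 in Hoxc had no peak. Mir615, inside Hoxc5, had the rabbit PRDM16 peak of 8.6. Hottip, just outside the cluster beside Hoxa13, had PRDM16 at 2.87 and 4.54 and no H3K4me3. Hotair, in Hoxc, had a sheep PRDM16 peak of 3.12 only.

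The genes that work with Hox proteins or control them were marked in these cells. All 9 genes of the PBX, MEIS and PKNOX families, whose homeodomain proteins bind DNA with Hox proteins, carried H3K4me3 in all 3 libraries, from 7.15 at Meis2 to 31.8 at Pbx3 in replicate 1. NKX2-1, PRDM16 and PRDM3 were each at 6 of 9. Pbx3 had NKX2-1 at 15.8, 3.26 and 4.00, PRDM16 at 10.9 in the rabbit library and PRDM3 at 7.39. Of 20 genes that control Hox expression, 15 carried H3K4me3, among them the trithorax genes Kmt2a and Kmt2b, the Polycomb genes Ezh2, Eed, Suz12, Rnf2 and Bmi1, and the retinoic acid receptors Rara, Rarb and Rarg. The other 5 had none in any library: the caudal genes Cdx1, Cdx2 and Cdx4 and the retinoic acid hydroxylases Cyp26a1 and Cyp26b1. NKX2-1 was at 14 of 20, PRDM16 at 16 and PRDM3 at 14, against the backgrounds given above.

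Other families of developmental regulators were read by the same rule, except that genes without a listed start were read at either gene end. Of 43 genes of the Dlx, Lhx, Irx, Pax and Nkx families, 11 carried H3K4me3 in at least 2 libraries and 21, 11 and 9 in the single libraries, so here too replicate 1 marked the most. PRDM16 was at 28 of them in both libraries (33 in the rabbit and 34 in the sheep library), NKX2-1 at 12 and PRDM3 at 16. The Lhx family had H3K4me3 at 6, 2 and 0 of 8 genes in the 3 libraries and PRDM16 in both libraries at 7. The Pax family had H3K4me3 at 2, 1 and 1 of 9 genes and PRDM16 in both libraries at 5. The Irx family was marked at 5 of 6 in each H3K4me3 library. Hox genes had fewer marked starts than these families, 3 of 39 against 11 of 43. The Hox count was also 3 when Hox genes without a listed start were read at either gene end, like the families. The difference was not tested because genes of a cluster are not independent.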

How the data were processed

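Peaks were deposited as 1 list per sample in build mm10, and Trimmomatic, Bowtie2, MACS2 and HOMER are named, without versions or settings, per the submitters' processing notes. No source used here says whether an IgG library served as a control in peak calling. The deposited fold enrichment is a ratio to background by the authors' caller, and the deposited −log10 p and −log10 q and the deposited score are also the authors'. The factor lists hold many peaks of low confidence and the H3K4me3 lists do not, so their numbers of peaks are not comparable.

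Gene positions, listed starts and promoter and microRNA sequences are from RefSeq, GRCm38.p6. Of the 39 Hox genes, 22 have a listed start. For the others the outer 5′ end on the cluster's strand was used. The design had planned either gene end, which was kept as an alternative chosen after seeing the data. Genes outside the clusters without a listed start were read at either end. Some such ends belong to long transcripts (Hoxb3 begins beside Hoxb5), so a start may lie far from the main promoter. Whether a peak is exonic was not analysed here. A gene counted as bound when a peak overlapped the 1 kb on each side of its start in at least 2 of 3 libraries (H3K4me3, NKX2-1), in both (PRDM16) or in the 1 library (PRDM3). Coverage is the percent of bases under a peak. The genome is chromosomes 1 to 19, X and Y up to the last annotated gene or peak. A percentile is a peak's rank by fold in its own list.

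Tests were exact sign-flip permutations over libraries and exact permutations of library labels, with Benjamini-Hochberg adjustment over 6 cluster pairs, in Python 3.11.15 with numpy 2.4.6 and pandas 2.3.3. The permutation tests were checked on made-up values, and the reading of peaks at starts and of coverage on simulated peaks. Alternatives were other windows, peak strength, summits, flanks, Hoxb1 to Hoxb9 only, leaving out each library and a replicate block. Values were named for genes with H3K4me3, the genes next to the marked stretch, the top gene of each cluster over factor libraries and genes with a factor but no H3K4me3. The members, lists and tests were chosen with earlier results of these data known. The 3 IgG samples were not analysed here. Values of 1 Hox gene and 1 developmental family are not reported here.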

Additional observations from a re-analysis of the deposited data

Results flagged for a closer look

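The order of the Hoxb and Hoxd clusters differed between H3K4me3 and PRDM16. In each of the 3 H3K4me3 libraries Hoxb was covered more than Hoxd, and in both PRDM16 libraries Hoxd was covered more than Hoxb. The mean difference between the clusters was 10.4 percentage points higher for H3K4me3 than for PRDM16. It was picked out because every library of 1 target moved one way and every library of the other moved the opposite way. The difference was not tested, and PRDM16 has 2 libraries with different antibodies. Hoxb was taken whole here, with the long stretch between Hoxb13 and Hoxb9.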

How the results depend on the processing

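Directions of the coverage comparisons held under most alternatives. With the 14000 strongest peaks of each list, factor coverage of clusters exceeded that of flanks by 0.420 points and passed 0.05 (exact permutation p = 0.0312). In the same setting, mean cluster coverage relative to the genome fell for H3K4me3, NKX2-1 and PRDM, as given above. Reversals were Hoxa minus Hoxb in H3K4me3 (−0.439) and H3K4me3 minus NKX2-1 relative to the genome (−0.71 on the log2 scale), both without H3K4me3 replicate 1, and Hoxa minus Hoxd in the factors (−0.192) without PRDM16 replicate 2. Over the libraries left out in turn, these results ran up to 4.82, to 1.22 on the log2 scale and to 1.20. With NKX2-1 and H3K4me3 paired by replicate number (a replicate block), the difference relative to the genome was 0.31 (exact permutation p = 0.75). The pairs gave 1.64, 0.48 and −1.18. The labels do not say that a number marks a shared batch.

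Counts of genes depended strongly on the rule. Main counts were 3 (H3K4me3), 2 (NKX2-1), 13 (PRDM16) and 9 (PRDM3). A window of 250 bases gave 0, 0, 5 and 1, and a window of 2.5 kb gave 26 for PRDM16. Peaks with −log10 q of at least 5, or the 14000 strongest, left 0 for NKX2-1, PRDM16 and PRDM3. Summits in the window gave 1 for H3K4me3 and 1 for NKX2-1. Requiring all 3 libraries gave 0 for both. Any library gave 12 for H3K4me3, 13 for NKX2-1 and 34 for PRDM16, against 61.1%, 64.3% and 66.1% of protein-coding genes. Leaving out 1 library gave 0 to 3 for H3K4me3 (0 without replicate 1 or 2), 0 to 1 for NKX2-1 (0 without replicate 1) and 19 to 28 for PRDM16 (28 without replicate 1). For the other windows, the stronger peaks, the summits and all 3 libraries, no share of all protein-coding genes is given here. Those changes in count therefore cannot be called particular to Hox genes. Unknown read depth limits what an absent peak can show.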
